A study of Mus musculus with 4 samples.

Results

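The S100 genes encode small calcium-binding proteins of the EF-hand family, and their RNA was followed in 3 mouse liver cell lines. The genes were the 10 named S100 genes S100a1, S100a4, S100a6, S100a8, S100a9, S100a10, S100a11, S100a13, S100a14 and S100g, out of 18193 genes with an array probe set annotated to 1 symbol. They were found by that annotation. Of the 10, 9 had such a probe set, 12 probe sets in all. S100a11 was represented only by a probe set shared with the pseudogenes S100a11-ps and Gm12854, whose values are given separately.

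RNA had been measured on 4 Affymetrix Mouse430_2 arrays from 5 µg of total RNA each. MMH-D3, a line described as hepatocytic and differentiated, filled 2 of them. The other arrays held 1 line each of the resident liver stem cells (RLSC). MetE14/3 came from the liver of an embryo carrying the cyto-Met transgene at 14 days post coitum and goes back to clone B2. WTE14/1 came from a wild-type liver at that stage, and its source label reads WT E14/3. Cyto-Met is a truncated, cytoplasmic form of the receptor Met. The labels give no genotype, stage or age for MMH-D3 itself, although MMH lines are known as derived from livers with truncated Met. Both RLSC lines were picked for palmate colonies, grown on in basal medium with serum, and frozen after about 50 generations. For MMH-D3 the labels describe only the primary culture medium with serum, EGF, IGF-II and insulin, so medium and line cannot be told apart. The labels do not state separate cultures behind the MMH-D3 arrays, so the spread between those 2 arrays may be technical. Between arrays, the p-values below draw only on that spread and on the gap between MetE14/3 and WTE14/1, which are different lines. The variance of each gene is also drawn toward that of other genes of similar level.

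S100 proteins act mostly as dimers that change shape on binding calcium and then bind target proteins such as annexins, myosin or membrane receptors. S100a10 is an exception that binds its partner annexin A2 without calcium. In liver, S100a4, S100a6 and S100a11 are known from stromal or injured and regenerating tissue, S100a8 and S100a9 from infiltrating neutrophils and macrophages, and several S100 genes from biliary and other epithelia. Most S100 genes lie in 1 chromosomal cluster, while S100g lies on the X chromosome.

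Signals are the deposited intensities on a linear scale, each array scaled to a common trimmed mean. A difference is RLSC minus MMH-D3 on the scale of log2(signal + 4) after quantile normalization, with the moderated standard error (SE) of limma and an adjusted p over all 12598 genes tested. Levels are not compared between probe sets, except that marker lists are given as summed signals, in which bright probe sets weigh most. Poly-A spike-in control signals were 10.7-fold higher (median of 24 probe sets) on MetE14/3 and MMH-D3 array 1, called batch A, than on WTE14/1 and MMH-D3 array 2, called batch B. Each of these pairs thus has 1 RLSC and 1 MMH-D3 array. The hepatocyte markers Tat, Cps1 and Fgb lay below the filter level, a signal of about 11.7, by their mean over the arrays. Albumin (Alb) read 44.7 and 440.5 on the MMH-D3 arrays and 1.70 and 2.91 in the RLSC lines, and the summed signal of the 9 hepatocyte markers with a probe set was 5509 and 9818 in MMH-D3 against 381 and 213.

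Of the 9 S100 genes tested, 1, S100a8, was lower in RLSC by limma, none was higher and 8 did not pass. An unadjusted limma p under 0.05 was reached by 5 of the 9 and by 1558 of all 12598 genes tested. Over all genes, 0.516% passed as lower and 0.397% as higher. Both RLSC arrays lay below both MMH-D3 arrays at 8 of the 9 genes, every one but S100a4, against 21.4% of all genes tested. For S100a8, S100a9, S100a14 and S100g the RLSC mean lay below the filter level, so these 4 genes entered the test through MMH-D3, where they were higher, and their place in these counts is fixed in part by the filter. Without a filter the median difference over the 9 genes was -1.83, and over all 18193 genes it was 0.00.

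**Figure D1:**
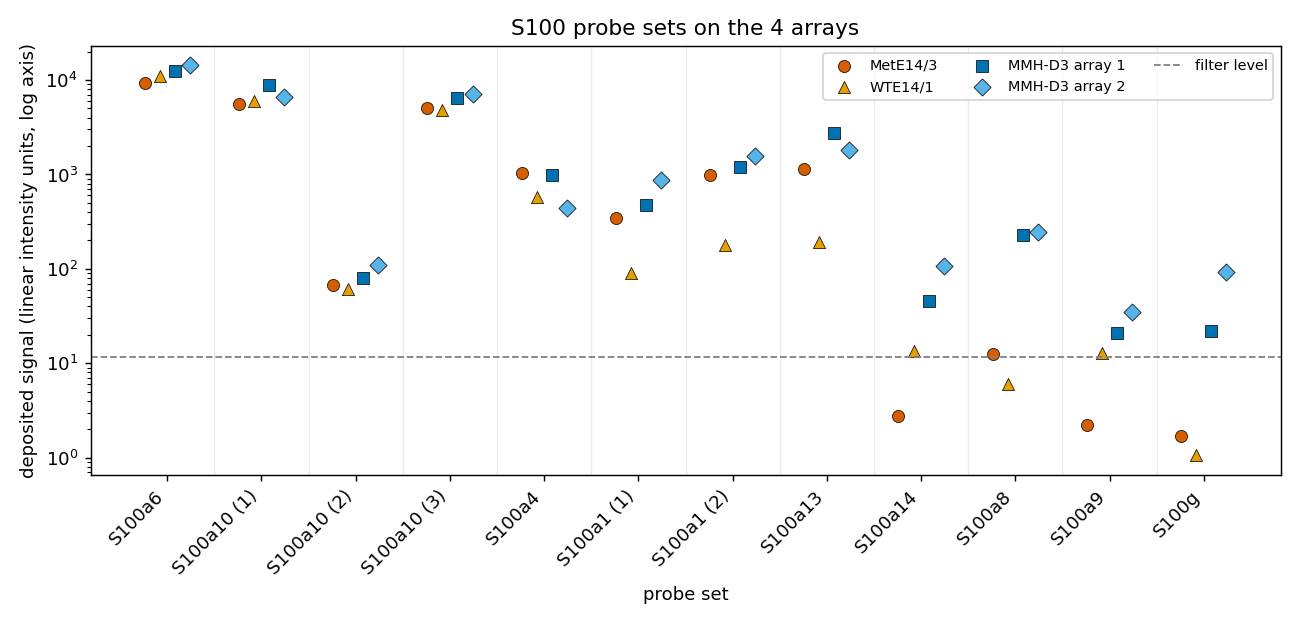
Deposited signal (log axis) of each S100 probe set on the 4 arrays, 1 point per array, with numbers in brackets for genes with several probe sets and a dashed line at the filter level. The S100a8 points of the RLSC lines, at 12.4 and 6.07, lie far below those of MMH-D3, at 227 and 246, while the S100a6 points of all arrays lie between 9303 and 14291.

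S100a8, which with S100a9 forms the neutrophil protein calprotectin, was the member that passed. MetE14/3 gave a signal of 12.4, WTE14/1 6.07, and MMH-D3 arrays 1 and 2 227 and 246. The groups did not overlap and the MMH-D3 arrays were close to each other. The RLSC mean was 9.24 ± 4.48 and the MMH-D3 mean 237 ± 13.2 (SD, n = 2 each). The difference was -4.31 (SE 0.56, limma adjusted p = 0.0372), a 19.9-fold lower level on the log2(signal + 4) scale. Within batch A it was -3.82 and within batch B -4.80.

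The S100a8 call rested on few arrays. With 1 array left out, 1 group keeps a lone array, which is assumed to vary like the others. The limma adjusted p was 0.0792 without WTE14/1, 0.105 without MMH-D3 array 1 and 0.308 without MMH-D3 array 2, and it was 0.0772 without the filter on low signals. With a pseudocount of 32 the difference was -2.75, still passing (limma adjusted p = 0.0384), so its size depends on the pseudocount.

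S100a9, the partner of S100a8, had low signals in RLSC as well. MetE14/3 gave 2.20, WTE14/1 13.01, and the MMH-D3 arrays 20.8 and 34.8. Both RLSC arrays were below both MMH-D3 arrays, and the RLSC lines differed more from each other than the MMH-D3 arrays did. The difference was -1.83 (SE 0.65, limma adjusted p = 0.323) and did not pass. The batch A arrays differed by -2.28 and the batch B arrays by -1.37.

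The start regions of these genes are shown because S100a8, S100a9 and S100g, which were near the floor in RLSC, and S100a4, which was not, share 1 short sequence element. RefSeq windows (GRCm38.p6) from 250 bases before to 50 after the annotated start were held for 8 of the 10 genes. Both strands were searched for the TATA box (TATAAA), the AP-1 site (TGANTCA), the GC box (GGGCGG) and the element CCAAT. No match overlapped another in these windows. Stretches from 100 bases before the start to 20 after are printed in the direction of the gene, with every match in capitals.
S100a8, chr3:90668971-90669090, plus strand: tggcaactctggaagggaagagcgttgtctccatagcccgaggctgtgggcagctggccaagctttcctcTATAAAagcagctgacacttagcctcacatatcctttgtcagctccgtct
S100a9, chr3:90695702-90695821, minus strand: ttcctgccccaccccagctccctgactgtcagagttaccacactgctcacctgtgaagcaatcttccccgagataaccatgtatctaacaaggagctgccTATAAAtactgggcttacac
S100g, chrX:162964580-162964699, minus strand: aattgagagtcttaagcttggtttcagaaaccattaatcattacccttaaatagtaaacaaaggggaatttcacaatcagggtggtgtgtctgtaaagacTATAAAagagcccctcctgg
S100a4, chr3:90603670-90603789, plus strand: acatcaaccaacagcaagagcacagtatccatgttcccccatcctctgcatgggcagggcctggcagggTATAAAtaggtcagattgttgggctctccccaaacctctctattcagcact

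TATAAA occurred in the windows of these 4 genes and in 13.6% of 32851 windows of the same length. It lay at bases -30 to -25 from the annotated start in S100a8 and -31 to -26 in S100a4. In S100a9 and S100g it lay at bases 1 to 6 after the annotated start. The element is thus found both in genes near the floor in RLSC and in S100a4, whose groups overlapped.

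Markers of neutrophils and macrophages, the usual sources of S100a8, were low. Of 16 with a probe set, 8 lay below the filter level: Ptprc, Itgam, Itgb2, Lyz2, Fcer1g, Tyrobp, Camp and Ltf. The neutrophil granule genes Elane, Mpo and Ngp read between 2.59 and 31.4 on all arrays. The summed signal of the list was 246 and 313 in the RLSC lines and 324 and 862 on the MMH-D3 arrays, where the tetraspanin Cd53 alone gave 119 and 554. In bulk RNA, fewer cells of a type and less RNA per cell cannot be told apart.

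Stratified epithelium is another site of S100a8, S100a9 and S100a14. Of its 8 markers, 7 had a probe set, with a summed signal of 241 and 320 in the RLSC lines and 674 and 1946 in MMH-D3. Involucrin (Ivl), a cornified envelope protein, gave most of the highest sum, reading 4.70 and 16.9 in RLSC and 170 and 1426 in MMH-D3. Keratin 14 (Krt14) read 23.6 and 3.27, then 263 and 382. The others were not higher on both MMH-D3 arrays: Krt10 read 99.6 and 167 in RLSC and 99.1 and 81.7 in MMH-D3, Lor 75.3 and 81.5, then 91.3 and 24.6, Sfn was below the filter level, and Krt5 and Trp63 read between 10.7 and 29.4 on all arrays.

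Biliary and mesothelial markers were also higher in MMH-D3 by their sums. The 7 cholangiocyte markers with a probe set summed to 9385 and 4490 in RLSC and 20828 and 27873 in MMH-D3. Of these sums Krt19 alone gave 7170 and 2900 in RLSC and 10761.5 and 12768 in MMH-D3. Tspan8, a tetraspanin, read 324 and 277, then 7411 and 11408, while the biliary factor Sox9 read 123 and 220.2, then 27.6 and 13.5. The 7 mesothelial markers summed to 11499 and 6332 in RLSC and 26402 and 32919 in MMH-D3. Of these sums Krt8 alone gave 8447 and 4159 in RLSC and 12561 and 14356 in MMH-D3. The uroplakin Upk1b among the 7 read 25.1 and 13.2, then 6289 and 6229. The part of such cells in the S100 differences was not tested.

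S100a14, an epithelial S100 protein, and S100g, the calcium carrier calbindin-D9k of intestine and kidney, had a mean above the filter level in MMH-D3 and below it in RLSC. S100a14 read 2.80 in MetE14/3, 13.5 in WTE14/1, and 46.0 and 107 on arrays 1 and 2 of MMH-D3. Both RLSC arrays were below both MMH-D3 arrays, but the difference of -2.99 (SE 0.64, limma adjusted p = 0.118) did not pass. The single arrays differed by -3.15 in batch A and -2.84 in batch B.

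S100g read 1.70 in MetE14/3, 1.07 in WTE14/1 and 21.8 and 91.8 on MMH-D3 arrays 1 and 2. The groups did not overlap, and the deposited signals of the MMH-D3 arrays were 4.21-fold apart (2.86-fold on the normalized log2(signal + 4) scale). The difference of -3.35 (SE 0.71, limma adjusted p = 0.115) did not pass. It came to -2.45 in batch A and -4.24 in batch B. Genes of calcium transport and vitamin D action, the usual setting of S100g, gave no call. Of 13 in the list 10 were tested, and none passed in either direction by limma. Their median difference was -0.25 against 0.03 over all genes tested. With 0.516% of all genes called lower and 0.397% higher, no call among 10 genes is the usual outcome. In limma 1 of the 10 had an unadjusted p under 0.05, against 1558 of all 12598 genes tested. The plasma membrane calcium pump Atp2b1 differed by -1.57 (SE 0.64) and the sarcoplasmic pump Atp2a2 by -0.53 (SE 0.29).

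**Figure D2:**
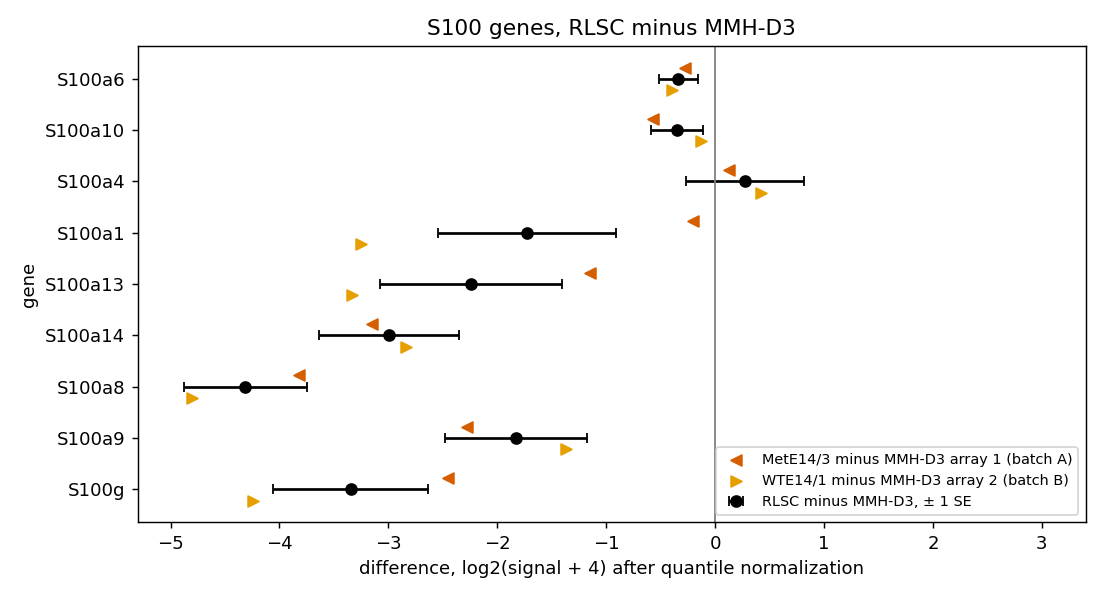
Difference between RLSC and MMH-D3 on the log2 scale for the 9 S100 genes, with ± 1 SE (n = 2 arrays a group), and the difference of the single arrays within each batch as triangles. S100a8 lies at -4.31, S100a6 and S100a10 lie near 0, and the batch values of S100a1 are far apart at -0.21 and -3.25.

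S100a1, known best as a regulator of calcium handling in muscle, and S100a13, which takes part in the release of Fgf1 and interleukin 1 alpha, differed clearly in signal between the RLSC lines. MetE14/3 gave 1155 for S100a13, WTE14/1 192, and the MMH-D3 arrays 2760 and 1819. WTE14/1 was the low array, with MetE14/3 between it and the MMH-D3 arrays. The difference between the groups was -2.24 (SE 0.84, limma adjusted p = 0.348) and did not pass. Batch A gave -1.15 and batch B -3.33. Without MetE14/3 it was -3.57, with WTE14/1 as the lone RLSC array.

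S100a1 had 2 probe sets of the same pattern. The brighter one read 992 in MetE14/3, 180.1 in WTE14/1, and 1195 and 1573 on arrays 1 and 2 of MMH-D3. The other read 347, 91.1, 478 and 878 in that order. In both, WTE14/1 was low and MetE14/3 lay just below the lower MMH-D3 array. The difference at the brighter probe set was -1.73 (SE 0.82, limma adjusted p = 0.477), at the other -1.96, and neither passed. At the brighter probe set batch A gave -0.21 and batch B -3.25.

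Between the RLSC lines, S100a1 was 5.86-fold and S100a13 6.31-fold higher in MetE14/3 on the normalized log2(signal + 4) scale, with 1 array each and no test. On that scale they were the 2 of 9 genes at least 4-fold apart, against 5.13% of all genes, and none of the 9 was as far apart between the MMH-D3 arrays, against 5.96% of all genes. These counts depend on the scale. On the deposited signals S100a1 was 5.51-fold and S100a13 6.00-fold apart, and S100a9 (5.91-fold) and S100a14 (4.83-fold), both higher in WTE14/1 and close to the floor, passed 4-fold too, against 7.64% of all genes. S100g passed it between the MMH-D3 arrays, 1 of 9 against 9.54% of all genes. With the pseudocount S100a9 was 2.24-fold and S100a14 2.10-fold apart between the lines. MetE14/3 is also the batch A array and WTE14/1 the batch B array, so line, transgene and batch cannot be told apart here.

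S100a1 and S100a13 are neighbours that are transcribed away from each other. Their annotated RefSeq starts lie 104 bases apart, so that the 2 start windows share 204 bases. The stretch between the starts is printed because both genes were high in the same arrays. None of the 4 elements searched for had a match in either window, so the run holds no capitals.
S100a1 and S100a13, chr3:90514331-90514434 (GRCm38.p6), plus strand: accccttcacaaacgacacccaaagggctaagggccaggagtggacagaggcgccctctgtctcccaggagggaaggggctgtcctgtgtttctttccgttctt

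The pattern was set beside the order of the genes on the chromosome, a comparison made after the values had been seen. From S100a1 to S100a9 the RefSeq table lists 12 protein-coding genes in a row, all S100 genes, in the order S100a1, S100a13, S100a14, S100a16, S100a3, S100a2, S100a4, S100a5, S100a6, S100a7a, S100a8 and S100a9. S100a16, which is not among the 10 genes, read 963 in MetE14/3, 172 in WTE14/1, and 3047 and 2781 on arrays 1 and 2 of MMH-D3. On the normalized scale the lines were 5.97-fold apart, and its second probe set read 627, 145, 2880 and 2336 in that order. The difference between the groups was -2.85 (SE 0.80, limma adjusted p = 0.209). S100a14, which lies between S100a13 and S100a16, was low in both RLSC lines and slightly higher in WTE14/1.

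Of the nearest 6 protein-coding genes beyond S100a1, 4 were tested. None of them was 4-fold apart between the lines on the normalized scale, against 5.13% of all genes tested. The nearest, the chromatin target protein Chtop, differed by 0.15 between MetE14/3 and WTE14/1 on the log2 scale, and Snapin, a SNARE-associated protein, by -0.42. At that share, none among 4 genes is the usual outcome, so the count does not tell where the pattern ends.

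**Figure D3:**
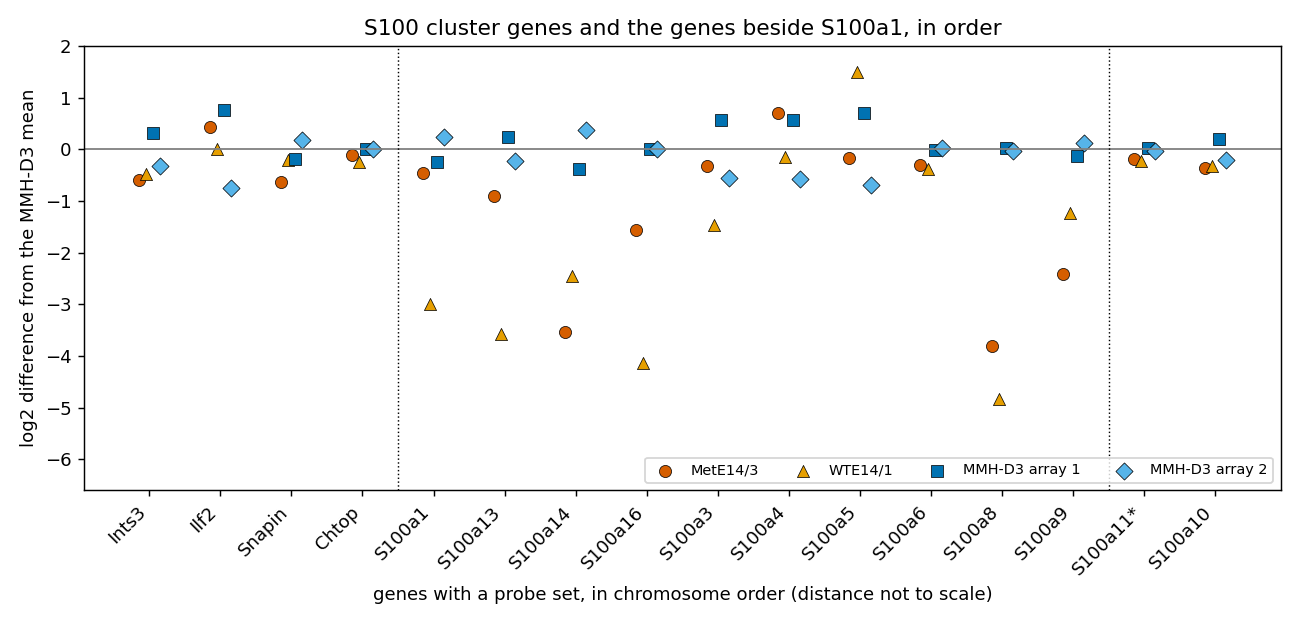
Log2 difference of each array from the mean of the MMH-D3 arrays, for the tested genes beside S100a1 (left of the first dotted line), the S100 genes from S100a1 to S100a9 that have a probe set (middle) and S100a11 and S100a10 (right; the star marks the probe set shared with pseudogenes), in chromosome order without distances. WTE14/1 lies at -3.00, -3.57 and -4.14 in S100a1, S100a13 and S100a16, while the S100a6, S100a11 and S100a10 points of all arrays stay between -0.38 and 0.21.

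S100a6, or calcyclin, an annexin-binding protein of dividing cells, gave strong signals on all arrays. MetE14/3 gave 9303, WTE14/1 10992, and the MMH-D3 arrays 12476 and 14291. The groups did not overlap but were close, at a difference of -0.34 (SE 0.18, limma adjusted p = 0.549). These signals were 57.4% to 84.7% of the highest signal of their array, and whether they were near saturation was not tested.

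S100a10, the light chain of the annexin A2 complex at the cell membrane, had 3 probe sets. The brightest read 5601 in MetE14/3, 6038 in WTE14/1, and 8914 and 6662 on arrays 1 and 2 of MMH-D3. In that order the second read 5080, 4784, 6408 and 7132, and the dimmest 68.1, 61.0, 80.8 and 111. In all 3 the RLSC arrays lay below the MMH-D3 arrays by a small margin. The difference was -0.35 (SE 0.24, limma adjusted p = 0.664), with -0.39 and -0.75 at the other probe sets.

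The probe set shared by S100a11 and its pseudogenes read 8239.5 in MetE14/3, 9159 in WTE14/1, and 10483 and 10454 on arrays 1 and 2 of MMH-D3. Its difference was -0.21, and which of the 3 loci gave the signal cannot be told apart. The S100a11 start region is shown because it held other elements than the 4 start regions above: GGGCGG at 3 places, against 1 in S100a9 outside its printed stretch, and TGANTCA at 2 places, of which 1 is printed. Capitals mark the matches. GGGCGG was in 35.7% and TGANTCA in 7.81% of all windows.
S100a11, chr3:93520396-93520515 (GRCm38.p6), plus strand: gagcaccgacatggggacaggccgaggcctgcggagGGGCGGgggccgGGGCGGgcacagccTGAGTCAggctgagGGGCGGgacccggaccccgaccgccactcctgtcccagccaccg

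S100a4, also called fibroblast-specific protein and widely used as a fibroblast marker, was the member whose groups overlapped. MetE14/3 gave 1045, WTE14/1 579.7, and the MMH-D3 arrays 979.5 and 436. The batch A arrays were high and the batch B arrays low in both groups. The difference was 0.27 (SE 0.54, limma adjusted p = 0.911), with 0.13 in batch A and 0.42 in batch B. The sign turned without MetE14/3 (-0.15) and without MMH-D3 array 2 (-0.29). Fibroblast and stellate markers did not move as 1 group. Their summed signal over 11 genes was 1988 and 9289 in the RLSC lines and 140.0 and 198 in MMH-D3, but smooth muscle actin (Acta2) alone gave 1638 and 8962 of the RLSC sums. The receptor Pdgfrb read 248 and 65.8 in RLSC and 0.20 and 1.19 in MMH-D3. Decorin (Dcn) went the other way, with 1.10 and 4.01 in RLSC and 15.6 and 17.3 in MMH-D3, and Col1a1, Thy1, Dcn and Lrat lay below the filter level.

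Partners and targets of S100 proteins were read from a list of 25 genes, of which 19 were tested. Of these, 1 was lower in RLSC, none was higher and 18 did not pass, against 0.516% lower and 0.397% higher over all genes tested. Their median difference was 0.34, against 0.03 over all genes. The gene that passed was Fgf1, a growth factor without a signal peptide that leaves cells together with S100a13. Fgf1 read 11.4 in MetE14/3, 23.1 in WTE14/1, and 192 and 369 on arrays 1 and 2 of MMH-D3. Its groups did not overlap and the difference was -3.88 (SE 0.53, limma adjusted p = 0.0394). The annexin A2 gene Anxa2, whose product binds S100a10, differed by -0.30 (SE 0.19), and Ahnak, a scaffold of that complex, by -0.41 (SE 0.30), neither passing. Ezr, lower in RLSC, came nearer the threshold without passing, at -1.64 (SE 0.26, limma adjusted p = 0.0540). Annexin A6 (Anxa6) lay on the other side, at 2.80 (SE 0.47, limma adjusted p = 0.0618). It read 1863 and 1911 in RLSC and 378 and 197 in MMH-D3. Both RLSC arrays were below both MMH-D3 arrays at 5 of the 19 genes, against 21.4% of all genes tested. They were above both at 9, for which the share of all genes is not given here.

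Receptors of extracellular S100 proteins and their signalling genes gave no call. Of 16 in the list 12 were tested, with a median difference of -0.12. Over all genes tested 0.516% passed as lower and 0.397% as higher, so no call among 12 genes is the usual outcome. In limma 3 of the 12 had an unadjusted p under 0.05, against 1558 of all 12598 genes tested. Ager, the receptor RAGE, was not tested. The receptor Tlr4, which binds the S100a8 and S100a9 complex, differed by -0.75 (SE 0.52). Its co-receptor Cd14 had the lowest p value of the list, at a difference of -3.20 (SE 0.53, limma adjusted p = 0.0607), and did not pass. Cd14 read 365 in MetE14/3, 209 in WTE14/1, and 1799 and 3594 on arrays 1 and 2 of MMH-D3. Bsg, an S100a9 receptor, read 4081 in MetE14/3, 4491 in WTE14/1, and 4299 and 3883 on arrays 1 and 2 of MMH-D3, and its groups overlapped. The proteoglycan Sdc1 differed by -1.05 (SE 0.38) without passing.

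Other EF-hand calcium-binding genes gave no call either. Of 21 in the list 12 were tested, and their median difference was 0.28. At the shares called over all genes (0.516% lower, 0.397% higher), no call among 12 genes is the usual outcome. An unadjusted limma p under 0.05 was reached by 5 of the 12, against 1558 of all 12598 genes tested. Sri, a calcium-release channel regulator, differed by 0.10 (SE 0.30), and the matrix protein Sparc by 1.66 (SE 0.49, limma adjusted p = 0.228). Among S100 genes outside the 10, 3 of 6 were tested and none passed in limma (1 had an unadjusted p under 0.05), with a median of -0.90. S100a3, a hair cuticle protein, read 76.1 in MetE14/3, 41.9 in WTE14/1, and 125 and 67.2 on arrays 1 and 2 of MMH-D3, and S100b, a glial protein, differed by -0.77 (SE 0.55).

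Genes with the pattern most like that of each S100 gene were found by the distance between the 4 log2 values, each gene centred on its own mean over the 4 arrays, for the 6 genes whose arrays spanned at least 4-fold. This is a description over 4 arrays, in which many genes can lie close. For S100a8 the nearest were Sbsn, a secreted protein of stratified epithelium (distance 0.023), and Prkcz, an atypical protein kinase C (0.17). Sbsn read 120.0 in MetE14/3, 67.1 in WTE14/1, and 1822 and 1658 on arrays 1 and 2 of MMH-D3.

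For S100a13 the nearest were Entpd5, an enzyme of the endoplasmic reticulum (distance 0.26), and Nudt17 (0.36). For S100a1 they were Neu2, a sialidase (0.16), and Mia2, which serves export from the endoplasmic reticulum (0.25). In WTE14/1 Nudt17 read 3.53, Neu2 1.05 and Mia2 2.78, all near the floor. S100a1 and S100a13 were each the nearest to the other among the 9 S100 genes, at 0.86, with 85 of 12597 genes closer to S100a1 and 44 closer to S100a13. For S100a14 the nearest were Tcf24 (0.16) and Mycn (0.20), and for S100g 1700110K17Rik (0.28) and Tm6sf2 (0.29). For S100a9 they were Hnf4aos (0.14) and Arhgap6 (0.27), while S100a8, its protein partner, was not the nearest S100 gene: that was S100a14, at 1.22.

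**Figure D4:**
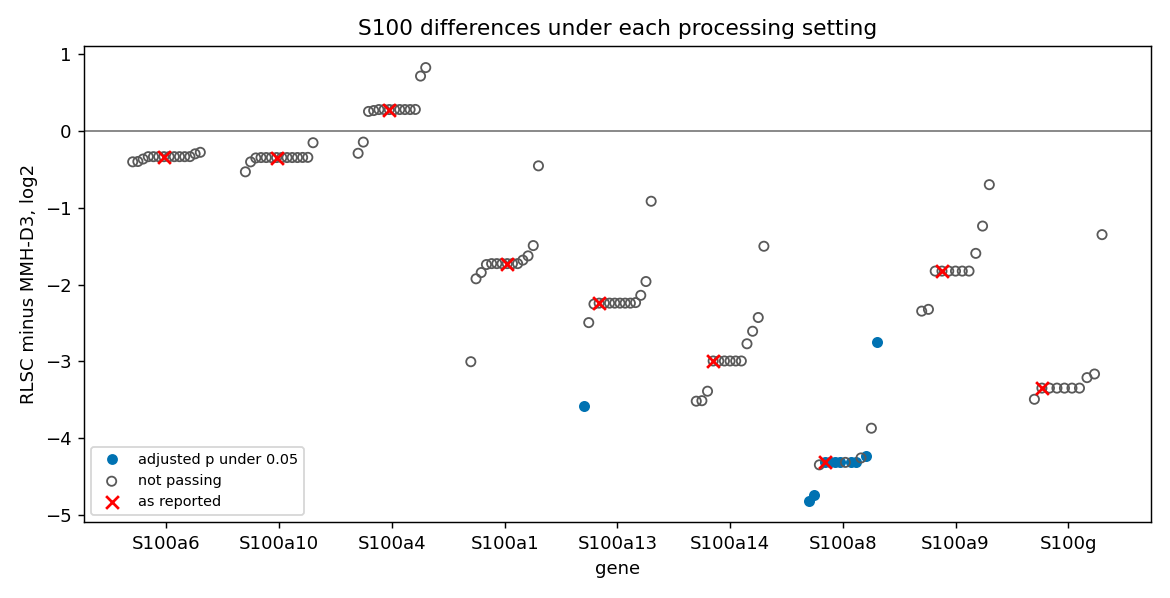
Difference between RLSC and MMH-D3 on the log2 scale for each S100 gene as reported (cross) and under each alternative setting that gave a value, with filled points where the limma adjusted p was under 0.05. S100a8 stays between -4.81 and -2.75, and the S100a4 points lie on both sides of 0, from -0.29 to 0.82.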

How the data were processed

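GCOS, software for Affymetrix arrays named in the submitters' processing notes, made the deposited signals, which are linear intensity values of the authors. Its version and algorithm are not given here. Of the value columns 0 stayed unused. The platform annotation gave 1 symbol to 34945 probe sets, several to 932 and none to 9160, beside 64 control probe sets kept out of tests.

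The pseudocount of 4 is the 20th percentile of the signals, rounded. Array medians lay 0.61 apart on the log2(signal + 4) scale, hence the quantile normalization. The filter took out probe sets whose mean was under the 40th percentile (signal 11.7). A gene with several probe sets was read from the one of highest mean. Groups were compared in limma 3.58.1 (R 4.3.3) by lmFit and trended eBayes. The tests were two-sided, Benjamini-Hochberg adjusted over 12598 genes, and called at 0.05. There were 2 residual and 4.24 prior degrees of freedom. So few arrays limit the precision.

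The S100 genes, gene lists and tests were chosen with earlier results of these data known. All S100 genes of the rule are named; of each list, up to 3 genes that passed, or the 2 with the highest mean. Anxa2, Anxa6, Ahnak, Ezr, Cd14, Tlr4, S100b, the neighbouring genes and the single markers were named after their values were seen. S100a10 and S100a14 are not in the promoter table used. Alternatives were other pseudocounts (1 and 32), no quantile normalization, no filter or one at the 60th percentile, other treatments of probe sets, no intensity trend, the array batch as a block and leaving out each array. Folds of the deposited signals were added after seeing the data.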

Additional observations from a re-analysis of the deposited data

How the results depend on the processing

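Of all genes, 115 passed in the comparison of RLSC with MMH-D3. The count was 9 without a filter and 198 with every probe set tested, and ranged from 0 to 206 when 1 array was left out; it was 206 without MetE14/3, 27 without WTE14/1 and 0 in limma without either MMH-D3 array, where 2197 genes (without array 1) and 1000 genes (without array 2) had an unadjusted p under 0.05. Of the S100 genes, the 1 that passed became 0 in limma without a filter, where 5 had an unadjusted p under 0.05, and 0 to 2 when 1 array was left out. S100a8 kept its direction in 13 of 13 alternatives and its call in 9, with limma adjusted p values from 0.0284 to 0.308. S100a4 turned to -0.15 without MetE14/3 and to -0.29 without MMH-D3 array 2, and ranged up to 0.82 without array 1. With 1 array left out, the lone array of a group is assumed to vary like the others. Genes at least 4-fold apart between the RLSC lines numbered 275 with a pseudocount of 32, 386 at the 60th percentile filter and 1218 with every probe set, and between the MMH-D3 arrays 307, 451 and 1523. On the deposited signals, a scale added after seeing the data, they numbered 962 and 1202. The array batch as a block changed no call of an S100 gene. It pairs the arrays by their spike-in signals and called 164 genes; the labels give no replicate numbers for the RLSC lines to pair by. Signals near the floor limit S100a8, S100a9, S100a14 and S100g in RLSC.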

Other observations

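Between S100a9 and S100a10 the RefSeq table lists 55 protein-coding genes outside the S100a genes, mainly of the cornified envelope, such as the Sprr and Lce genes, and 14 of them were tested. None passed between RLSC and MMH-D3, the usual outcome for 14 genes when 0.516% of all genes passed as lower and 0.397% as higher. Between the RLSC lines, 3 of the 14 were at least 4-fold apart on the normalized scale, against 5.13% of all genes tested. Sprr2h, a small proline-rich protein, differed by 4.92 on the log2 scale and was higher in MetE14/3. It read 195 in MetE14/3, 3.27 in WTE14/1, and 709 and 98.1 on arrays 1 and 2 of MMH-D3. The batch A array was thus far higher than the batch B array in both groups. Lce1h and Lce1i differed by -2.59 and -2.70, higher in WTE14/1. Ivl, which lies among them, was near the floor in both lines. These are values of 1 array a line, with no test, and line and batch cannot be told apart. Whether the probe sets of Sprr2h, Lce1h and Lce1i also read related genes was not tested.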
